A study of Saccharomyces cerevisiae with 12 samples.

Results

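The 132 genes that encode the cytosolic ribosomal proteins of budding yeast were taken as every feature whose standard name is RPL or RPS followed by a number and, where present, the copy letter A or B. They were 132 of the 7126 features of the deposited count table, 76 for the large and 56 for the small subunit. Of these, 114 formed 57 pairs of A and B copies (paralogues) and 18 had a single copy, so that the 132 genes stood for 75 protein families, 43 of the large and 32 of the small subunit. The stalk proteins (RPP genes) and ASC1 fall outside the name rule and were followed as a list. All 132 genes passed the filter on low counts, and the lowest count of any of them in any library was 375.

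Poly(A) RNA was sequenced from 12 samples of haploid MATa yeast of the BY4741 background in synthetic medium with ammonium chloride as nitrogen source, 3 replicates in each of 4 groups. All 12 samples carried his3delta1, ura3delta0, leu2delta0, lys2delta0, the CRZ1 deletion crz1delta::LEU2, and an insertion HYG-TEFp-GFP(Y66F) on chromosome VI. The strain called crz1 had no further allele, and the strain called crz1cnb1 also had cnb1delta::KanMx. CRZ1 encodes the transcription factor activated by calcineurin, a phosphatase whose regulatory subunit is the product of CNB1. The untreated cells were taken at 0 h. The treated cells had spent 48 h in medium with 400 mM KCl and had been diluted every 12 h so that growth stayed logarithmic. No untreated cells were taken at 48 h, so KCl and 48 h of culture cannot be told apart. No strain with intact CRZ1 was analysed here, and the labels give neither the number of clones behind each strain nor the origin of the replicates. The p-values cover no more than the spread seen between these samples, which may be technical.

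The libraries held 21305485 to 21599279 counts. CNB1 had 1346 to 3139 counts in the crz1 libraries and 14 to 68 in the crz1cnb1 libraries, and CRZ1 had 3 to 19 in all 12, as the strain labels say. Of the mating-type genes, the MATa-specific STE2 had 19391 to 34280 counts. Of the MATalpha-specific genes, STE3 had 16 to 220 and SAG1 458 to 721. No values were found under the names MFALPHA1 and MFALPHA2, so whether these genes were expressed is not known. STE3 had 211 to 220 counts in the crz1 controls and 20 to 33 in crz1 KCl. In crz1cnb1 it had 94 to 107 at 0 h and 16 to 19 in KCl. On the first principal component of all tested features (33.7% of the variance), the KCl libraries numbered 2 lay at -6.55 in crz1 and -4.53 in crz1cnb1. The other 4 KCl libraries lay at 19.8 to 24.2 and the 6 controls at -20.4 to -2.84. Results are therefore given by replicate number, and with and without the libraries numbered 2 where that matters.

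A ribosome takes 1 copy of most of its proteins, so growing yeast makes the mRNAs of all families together and at high levels. Their promoters are known for binding sites of Rap1, which recruits Fhl1 and Ifh1, and their transcription follows growth signals through the kinases TORC1, PKA and Sch9. In stress these genes are known to be repressed together for a time. Many of them have introns, which are rare in yeast, and some ribosomal proteins bind the pre-mRNA of their own gene: Rps14 represses RPS14B in this way, and Rpl22 inhibits the splicing of RPL22B.

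Sequence around the first exon-intron junction is shown for the RPS14 and RPL22 copies, because their paralogue ratios differed most between KCl and 0 h among the pairs with introns. Each window holds 20 exon bases and 30 intron bases, and the capitals mark the first 6 bases of the intron. All sequences are from the RefSeq genome of build R64, on the gene's strand, 5′ to 3′.
RPS14A, chrIII:178184-178233, reverse strand: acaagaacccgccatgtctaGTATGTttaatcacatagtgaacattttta
RPS14B, chrX:73777-73826, forward strand: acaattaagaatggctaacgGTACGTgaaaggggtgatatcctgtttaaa
RPL22A, chrXII:263186-263235, forward strand: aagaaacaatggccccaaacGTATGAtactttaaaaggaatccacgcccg
RPL22B, chrVI:64891-64940, reverse strand: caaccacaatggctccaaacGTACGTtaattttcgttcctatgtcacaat

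In the annotation RPS14A (YCR031C) spans 177500 to 178220 on chromosome III and RPS14B (YJL191W) 73787 to 74611 on chromosome X. RPL22A (YLR061W) spans 263194 to 263948 on chromosome XII and RPL22B (YFL034C-A) 64243 to 64932 on chromosome VI. The introns of the 2 minor copies, RPS14B and RPL22B, begin GTACGT, that of RPS14A begins GTATGT and that of RPL22A begins GTATGA. In the annotation 88 of the 132 genes (66.7%) had an intron inside the coding sequence, against 4.51% of 6008 nuclear protein-coding genes, and the ribosomal protein genes were 32.5% of the 271 genes with one. RPL7A and RPL7B had 2 introns each, which makes 90 introns. GTATGT opened 67 of these 90 (74.4%) and 138 of the 191 introns of other genes (72.3%). GTACGT opened 14 of the 90 (15.6%) and 12 of the 191 (6.28%). Among the 14 were the introns of the minor copy RPS9A and of the major copy RPS9B.

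The last part of the same introns, from 10 bases before the branch motif TACTAAC (in capitals) to the intron's final base, is shown because it is the other element that the splicing machinery reads.
RPS14A, chrIII:177907-177971, reverse strand: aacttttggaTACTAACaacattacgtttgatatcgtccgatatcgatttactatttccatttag
RPS14B, chrX:74164-74204, forward strand: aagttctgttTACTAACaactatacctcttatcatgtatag
RPL22A, chrXII:263524-263594, forward strand: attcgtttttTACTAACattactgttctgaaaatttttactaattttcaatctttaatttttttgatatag
RPL22B, chrVI:64600-64631, reverse strand: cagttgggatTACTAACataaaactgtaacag

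All 4 introns held TACTAAC, with 48 bases after it in RPS14A, 24 in RPS14B, 54 in RPL22A and 15 in RPL22B. Among all ribosomal protein introns 84 of 90 (93.3%) held it, against 148 of 191 other introns (77.5%). The deposited counts and TPM (transcripts per 1000000, scaled by gene length) together imply the gene length used by the authors, and for all 88 genes with an intron that length matched the coding length and for 0 of them the whole gene, within 0.1 on the log2 scale. The lengths used therefore cover coding exons only. Exon reads of spliced and unspliced RNA were not told apart, and unspliced RNA was not measured by itself.

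Promoter windows of 80 bases are shown for 4 genes that the results below name, with the match to an 11-base form of the Rap1 site, in which some positions are free, in capitals. The match lay 218 bases before the start codon in RPL22A, 236 in RPL22B, 242 in RPL7A and 281 in RPL5.
RPL22A, chrXII:262930-263009, forward strand: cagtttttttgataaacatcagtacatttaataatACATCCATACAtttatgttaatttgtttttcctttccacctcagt
RPL22B, chrVI:65135-65214, reverse strand: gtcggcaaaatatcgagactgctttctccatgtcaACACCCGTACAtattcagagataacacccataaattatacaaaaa
RPL7A, chrVII:366205-366284, reverse strand: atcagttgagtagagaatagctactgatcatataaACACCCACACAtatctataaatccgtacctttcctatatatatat
RPL5, chrXVI:302794-302873, forward strand: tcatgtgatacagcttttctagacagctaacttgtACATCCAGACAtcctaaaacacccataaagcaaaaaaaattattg

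On either strand of the 500 bases before the start codon, the same form was found in 40 of the 132 ribosomal protein genes (30.3%) and in 103 of 5868 other genes (1.76%), that is in 2.38% of all 6000. Its median distance from the start codon in the ribosomal protein genes was 329 bases. The shorter letters CCNTACA, which can overlap the same matches, were found in 79 of the 132 (59.8%) against 15.9% of all genes. Letters of other sites were not more frequent than elsewhere: the Abf1 site, in a form with free positions in its middle, was in 18.2% of the ribosomal protein genes and 22.7% of all genes, AAAATTTT (RRPE) in 11.4% and 12.4%, and GATGAG (PAC) in 21.97% and 28.3%. RPL9A, RPL9B and RPS14B had no match to either Rap1 form in this window. A match is a run of letters, not a measured binding site.

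The levels in TPM, which are per length and can be compared between genes, spanned 373-fold. The median over the 12 libraries' means was 2126 TPM for the large-subunit and 2584 TPM for the small-subunit genes, against 26.4 TPM for all features tested. In the large subunit the highest were RPL41A at 16340 TPM (12787 to 22232 over the 12 libraries), RPL41B at 6862 TPM (4384 to 11318) and RPL30, whose protein represses the splicing of its own pre-mRNA, at 5852 TPM (5024 to 6591). RPL41A and RPL41B encode the smallest ribosomal protein, of 25 codons before the stop codon, so their TPM rest on the shortest coding sequences of the set. In the small subunit the highest were RPS12 at 6917 TPM (5937 to 7749), RPS31, whose protein is made as a fusion with ubiquitin, at 6287 TPM (4997 to 7987) and RPS20 at 5760 TPM (3900 to 7442).

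The lowest genes were minor copies of pairs. RPL15B lay at 43.8 TPM (23.3 to 64.9), RPL7B at 291.3 TPM (199.1 to 425.6) and RPL18B at 389.0 TPM (327.7 to 536.7). In the small subunit RPS9A lay at 245.6 TPM (136.4 to 325.4), RPS14B at 337.6 TPM (270.9 to 425.3) and RPS22B at 584.2 TPM (469.2 to 695.9). Single-copy genes had a median of 3824 TPM, A copies 2271 TPM and B copies 2054 TPM.

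Summed over copies, the families were far more alike than the genes. The median family stood at 4370 TPM, and 71 of the 75 families lay within 2-fold of it. RPL29, whose protein is not essential, was lowest at 1396 TPM (930.7 to 2050), followed by RPL7 at 2181 TPM (1624 to 2938). The RPL41 family was highest at 23202 TPM (17171 to 33550), and RPS28 followed at 9691 TPM (7608 to 11886). These ranges take in all 4 groups, so the order of most families in the middle of the distribution lies within the spread between libraries.

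**Figure D1:**
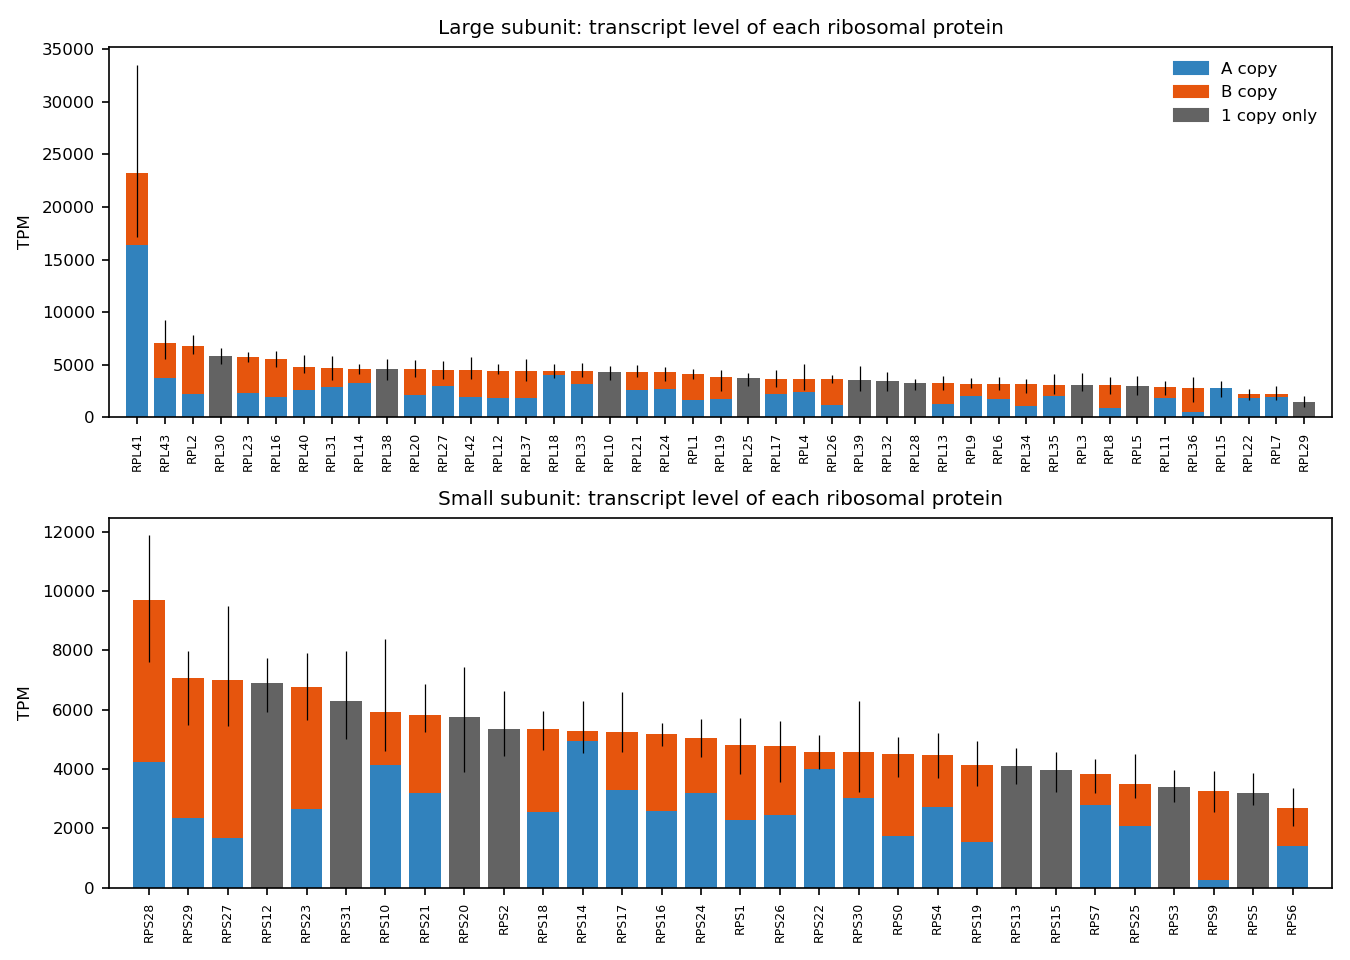
Mean TPM over the 12 libraries of 73 of the ribosomal protein families, with the A and B copies stacked and a line from the lowest to the highest family sum. Most families stand near the median of 4370 TPM although the split between copies varies widely, and RPL41 at 23202 TPM stands above all others.

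The genes differed in how steady they were. The median standard deviation (SD) of log2 CPM (TMM-scaled counts per 1000000) over the 12 libraries was 0.228, and 0.222 within groups after the group means were removed. RPL27B (694.2 to 919.9 CPM), RPL28 (1663 to 2116 CPM) and RPS23A (1259 to 1685 CPM) varied least, with SDs of 0.110, 0.111 and 0.115. RPL4A (1953 to 5809 CPM), RPS27B (1011 to 2536 CPM) and RPL4B (1110 to 2846 CPM) varied most, with SDs of 0.477, 0.427 and 0.426. Of the 132 genes, 20 ranged over more than 2-fold between their lowest and highest library. These 6 genes were picked by their SD after the values were seen.

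Together the 132 genes took 17.8 to 21.62% of the counts of a library. The share was 21.62, 18.6 and 18.3% in the crz1 controls numbered 1 to 3 and 18.8, 19.8 and 17.8% in the crz1 KCl libraries. In crz1cnb1 it was 20.99, 20.8 and 18.5% at 0 h and 19.9, 19.3 and 17.8% in KCl. The group means were 19.5% ± 1.85, 18.8% ± 0.987, 20.1% ± 1.37 and 19.0% ± 1.04 (SD, n = 3) in the same order of groups, and both strains' 0 h and KCl libraries overlapped. The libraries numbered 3 were lowest in every group.

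The balance of the subunits varied little by counts and more by TPM. The log2 ratio of large-subunit to small-subunit counts was 0.228 ± 0.0165 in the crz1 controls, 0.235 ± 0.0119 in crz1 KCl, 0.242 ± 0.0100 in the crz1cnb1 controls and 0.246 ± 0.00211 in crz1cnb1 KCl (SD, n = 3). All 12 libraries fell between 0.209 and 0.252. The 0 h and KCl libraries of each strain overlapped, as did the 2 strains at 0 h. The crz1 controls (at most 0.2402) lay below the crz1cnb1 KCl libraries (at least 0.2433), 2 groups that differ in both strain and treatment. By TPM sums these 2 groups overlapped, at 0.119 to 0.251 and 0.208 to 0.325. By TPM sums the log2 ratio ran from 0.119, in the crz1 control numbered 3, to 0.325, in the crz1cnb1 KCl library numbered 1, with group means of 0.206 ± 0.0755, 0.252 ± 0.0398, 0.236 ± 0.0345 and 0.259 ± 0.0595 (SD, n = 3) in the same order of groups.

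In KCl the median ribosomal protein mRNA was slightly lower than at 0 h in both strains, but in crz1 1 of the 3 replicate pairs went the other way. No single gene passed the test in the main fit, and with the replicate number as a block 4 did, in crz1cnb1. The median log2 change over the 132 genes was -0.13 in crz1, with 114 of 132 lower, and -0.21 in crz1cnb1, with 126 of 132 lower. The median over all 6309 tested features was 0.01 and 0.02 in these comparisons, and 48.4% and 47.1% of all features were lower. By subunit, the medians in crz1 were -0.12 (large) and -0.14 (small), and those in crz1cnb1 -0.20 and -0.22. These are relative values from bulk RNA, in which fewer cells with a transcript and less of it per cell cannot be told apart.

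Called by edgeR's quasi-likelihood test at a Benjamini-Hochberg adjusted p of 0.05, 0 of the 132 genes differed in crz1, where 0.571% of all features were called, and 0 in crz1cnb1, where 0.586% were. DESeq2 also called 0 in both strains, where it called 1.55% and 1.73% of the features it tested. At an unadjusted p of 0.05, edgeR counted 3 of the 132 (2.27%) in crz1 against 8.5% of all features, and 7 (5.30%) in crz1cnb1 against 8.35%. With the replicate number as a block, 0 were called in crz1, where 4.82% of all features were, and 4 in crz1cnb1, all lower (3.03%), where 2.3% of all features were called lower.

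The scaling moved the median of all features as well as that of the ribosomal protein genes. With library totals in place of TMM factors, the medians of the 132 genes were -0.04 in both strains, with 88 and 83 genes lower, while the median of all features was 0.09 in crz1 and 0.18 in crz1cnb1. Measured from the median of all features, the ribosomal protein median was -0.14 and -0.23 with TMM and -0.13 and -0.22 with library totals. In crz1 116 of the 132 genes, and in crz1cnb1 126, lay below the all-feature median under both scalings.

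Pair by pair, with each KCl library set against the control of the same number, the crz1cnb1 medians were -0.25, -0.18 and -0.21, with 121, 125 and 105 of the 132 genes lower. The crz1 medians were -0.39, 0.15 and -0.11, with 127, 29 and 96 genes lower, so pair 2 of crz1 went the other way. In every pair the large-subunit and small-subunit medians were close: -0.40 and -0.36, 0.15 and 0.14, and -0.09 and -0.16 in crz1, and -0.24 and -0.25, -0.17 and -0.18, and -0.23 and -0.20 in crz1cnb1. Over all 6 pairs, 14 genes (10.6%) were lower in 6, against 8.05% of all features, and 74 (56.1%) in 5, against 14.9%. None of the 132 was higher in all 6, against 11.3% of all features.

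The crz1 control numbered 2 stood apart from the other controls. The median deviation of the 132 genes from their own 12-library mean, in log2 CPM, was 0.17, -0.22 and 0.05 in the crz1 controls and -0.20, -0.08 and -0.09 in the crz1 KCl libraries. It was 0.15, 0.12 and 0.19 in the crz1cnb1 controls and -0.06, -0.07 and -0.03 in its KCl libraries. Without the crz1 control numbered 2, the median KCl change in crz1 was -0.23, with 123 genes lower. Without the control numbered 1 it was -0.02, with 75 lower. Without the 4 libraries numbered 2 it was -0.26 in crz1 and -0.22 in crz1cnb1, with 125 and 121 lower.

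**Figure D2:**
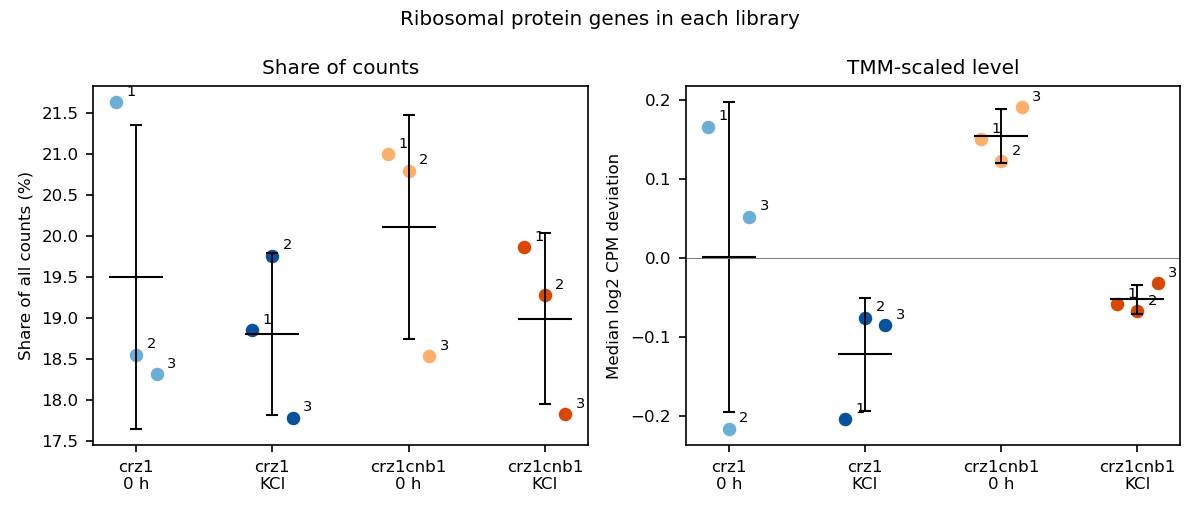
Share of all counts taken by the 132 ribosomal protein genes (%, left) and their median deviation from their own 12-library means (log2 CPM, right), by library and group, with the group mean ± SD (n = 3) and the replicate number beside each point. In the right panel the crz1cnb1 controls lie at 0.12 to 0.19 and its KCl libraries at -0.07 to -0.03, while the crz1 control numbered 2 lies at -0.22, with the KCl libraries.

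Groups that do not overlap, with all 3 KCl libraries below all 3 controls, were found in crz1 for 5 of the 132 genes (3.79%), against 3.74% of all features, a share near the background. RPL7A, RPL9A and RPL18B were among the 5. The reverse order was found for RPL22B alone (0.758%), against 6.53% of all features. In crz1cnb1 all 3 KCl libraries lay below all 3 controls for 40 genes (30.3%), against 6.01% of all features, and above them for 0, against 7.32%. These counts used TMM-scaled log2 CPM and were not made under other scalings. The share of all counts taken by the 132 genes overlapped between the crz1cnb1 groups.

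**Figure D3:**
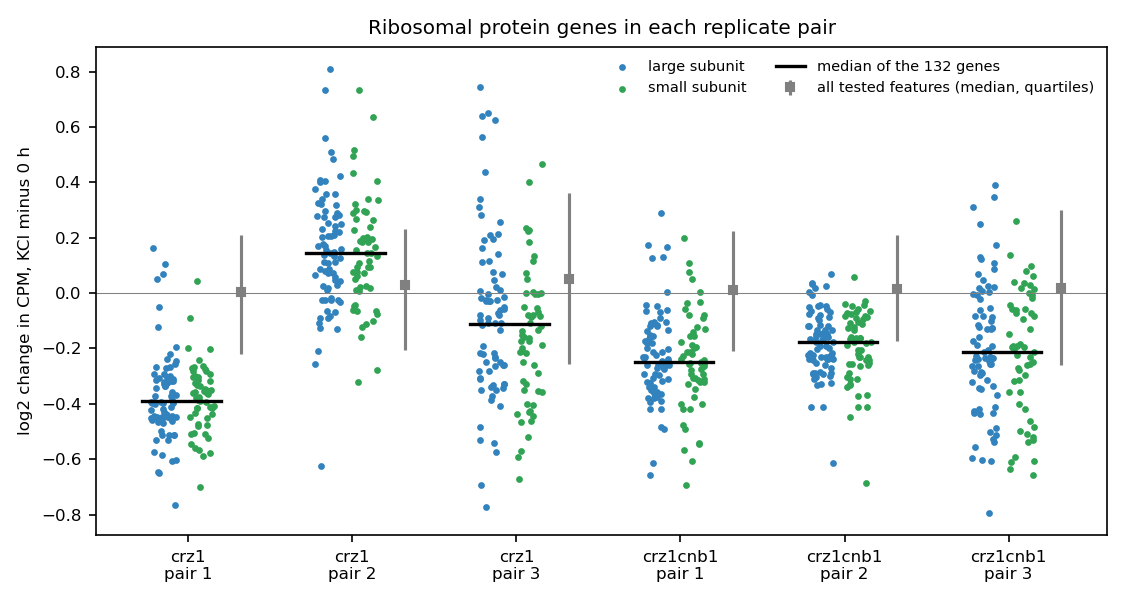
The log2 change of each ribosomal protein gene between KCl and 0 h in the 6 pairs of a KCl library and the control of its number. In 5 of the 6 pairs the median is below 0, from -0.39 to -0.11, and pair 2 of crz1 has a median of 0.15.

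Among single genes of the large subunit, RPL7A (YGL076C, chromosome VII, 364335 to 365996), the major copy of its pair, was the lowest in KCl in crz1. Its levels were 1852, 1831 and 2112 CPM in the crz1 controls and 1219, 1719 and 1419 CPM in KCl. In crz1cnb1 they were 1884, 2326 and 2209 CPM at 0 h and 1347, 1747 and 1455 CPM in KCl. The groups did not overlap in either strain, and all 6 pairs were lower, the least so pair 2 of crz1 at -0.09. The fitted log2 changes were -0.41 ± 0.189 (SE, 95% interval -0.82 to -0.0048, adjusted p = 0.579) and -0.50 ± 0.189 (-0.90 to -0.09, adjusted p = 0.435) in edgeR. With the replicate block the value in crz1cnb1 was -0.50 ± 0.119 (adjusted p = 0.0366 in edgeR), which passed the test. RPL7A and RPL7B can share reads, with 37.7% of 50-base stretches unique in the less unique copy.

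RPS14B, the minor copy of the gene for the small-subunit protein Rps14, was the lowest small-subunit gene in both strains. It stood at 199.9, 170.4 and 207.1 CPM in the crz1 controls and 123.1, 140.3 and 173.1 CPM in KCl. In crz1cnb1 it stood at 204.3, 223.4 and 250.7 CPM at 0 h and 137.9, 139.0 and 189.9 CPM in KCl. The crz1 groups overlapped by 1 library on each side, the crz1cnb1 groups did not overlap, and all 6 pairs were lower. The fitted changes were -0.40 ± 0.193 (SE, adjusted p = 0.611) and -0.54 ± 0.193 (adjusted p = 0.371) in edgeR. With the block the change in crz1cnb1 was -0.55 ± 0.109 (adjusted p = 0.0160 in edgeR).

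Another gene called with the block in crz1cnb1 was RPL18B. RPL18B, the minor copy of its pair, stood at 289.2, 268.1 and 321.6 CPM in the crz1 controls and 200.4, 224.6 and 268.0 CPM in KCl, and at 267.3, 379.2 and 376.9 CPM against 227.6, 247.6 and 261.7 CPM in crz1cnb1. Every KCl library lay below every control of its strain, and all 6 pairs were lower. The change of RPL18B in crz1cnb1 was -0.47 ± 0.191 (SE) without the block, and -0.46 ± 0.117 (adjusted p = 0.0442) with it, in edgeR.

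The lowest large-subunit genes in crz1cnb1 were RPL4A, whose protein lines the exit tunnel, at -0.54 ± 0.344 (SE), and RPL5, at -0.52 ± 0.287, whose protein binds 5S ribosomal RNA with Rpl11. RPL5 had 3199, 3876 and 5411 CPM at 0 h and 2440, 3168 and 3122 CPM in KCl, without overlap. RPL4A had 3364, 3396 and 5809 CPM at 0 h and 2135, 2553 and 3949 CPM in KCl, and its groups overlapped. Each of these genes was also lower in crz1, at -0.31 for RPL5 and -0.34 for RPL4A, where their groups overlapped. Neither passed the test in any of the 21 alternative fits, and RPL4A and RPL4B share reads, with 27.3% of 50-base stretches unique. In the small subunit RPS10A at -0.48 ± 0.189 and RPS20 at -0.46 ± 0.198 came next to RPS14B in crz1cnb1.

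In crz1 the other named low genes were RPL9A at -0.36 ± 0.168 (SE) and RPL12A, for a protein at the base of the stalk, at -0.35 ± 0.208 in the large subunit, and RPS28A at -0.34 ± 0.228 in the small subunit. Adjusted p-values in edgeR were 0.586 for RPL9A and 0.814 for RPL12A. The change of RPS28A, whose protein is known to bind the RPS28B mRNA, was -0.07 without the crz1 control numbered 3 and -0.57 without that numbered 2.

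A few genes ran against the rest. RPL22B, the minor copy for Rpl22, was at 188.0, 144.9 and 136.5 CPM in the crz1 controls and at 195.0, 213.8 and 210.6 CPM in KCl, which was above every control. In crz1cnb1 it was at 198.9, 193.0 and 169.7 CPM at 0 h and 224.6, 187.3 and 215.7 CPM in KCl, with overlap. The fitted changes were 0.40 ± 0.172 (SE, adjusted p = 0.529) and 0.16 ± 0.172 (adjusted p = 0.899) in edgeR, so the change of the gene with the highest value did not pass the test either. RPL41B was at 0.32 ± 0.328 and 0.14 ± 0.328, and RPL9B at 0.20 ± 0.196 and 0.06 ± 0.196 in crz1 and crz1cnb1. RPL15B was at 0.13 ± 0.275 in crz1cnb1. In all, 5 genes were lower in 2 or fewer of the 6 pairs: RPL41B, RPL22B, RPL15B and RPL9B in 1 pair, and RPS9A in 2.

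In the small subunit the highest values were near 0. In crz1 RPS22B was at 0.15 ± 0.230 (SE), RPS9A at 0.12 ± 0.232 and RPS14A at 0.04 ± 0.243. In crz1cnb1 RPS30B was at 0.11 ± 0.301, RPS22B at -0.02 ± 0.230 and RPS14A at -0.04 ± 0.243. None of these passed the test, and in crz1cnb1 1 of the 56 small-subunit genes lay above 0.

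Genes with and without an intron had like medians, -0.12 (88 genes) and -0.15 (44 genes) in crz1, and -0.19 and -0.23 in crz1cnb1. Genes with the 11-base Rap1 form had medians of -0.12 and -0.19 (40 genes) and those without them -0.13 and -0.21 (92 genes). A copies had -0.13 and -0.19, B copies -0.12 and -0.20, and single-copy genes -0.15 and -0.22. Of the 57 pairs, 48 A copies and 49 B copies were lower in crz1, and 56 and 52 in crz1cnb1. Both copies were lower in 42 pairs in crz1 and 51 in crz1cnb1, both were higher in 2 and 0, and the copies had opposite signs in 13 and 6. All 57 major copies were lower in crz1cnb1, as were 51 of the 57 minor copies.

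The copies of a pair also differed in level, and in most pairs the same copy was higher in every library. By mean TPM the A copy was higher in 33 pairs and the B copy in 24. The A copy was higher in all 12 libraries in 27 pairs, the B copy in all 12 in 20, and the order differed between libraries in 10. The median absolute log2 ratio was 0.73, and 19 pairs differed by more than 2-fold and 8 by more than 4-fold.

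The most unequal pairs in favour of A were RPL15, with a mean log2 A/B ratio of 6.003 ± 0.288 (SD over the 12 libraries), RPS14 at 3.88 ± 0.275, RPL18 at 3.37 ± 0.206 and RPS22 at 2.78 ± 0.168. These are 64.1-, 14.7-, 10.3- and 6.86-fold. In favour of B they were RPS9 at -3.65 ± 0.313, RPL36 at -2.11 ± 0.212, RPS27 at -1.66 ± 0.371 and RPL8 at -1.38 ± 0.241, or 12.6-, 4.31-, 3.16- and 2.61-fold. In these 8 pairs the same copy was higher in all 12 libraries.

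**Figure D4:**
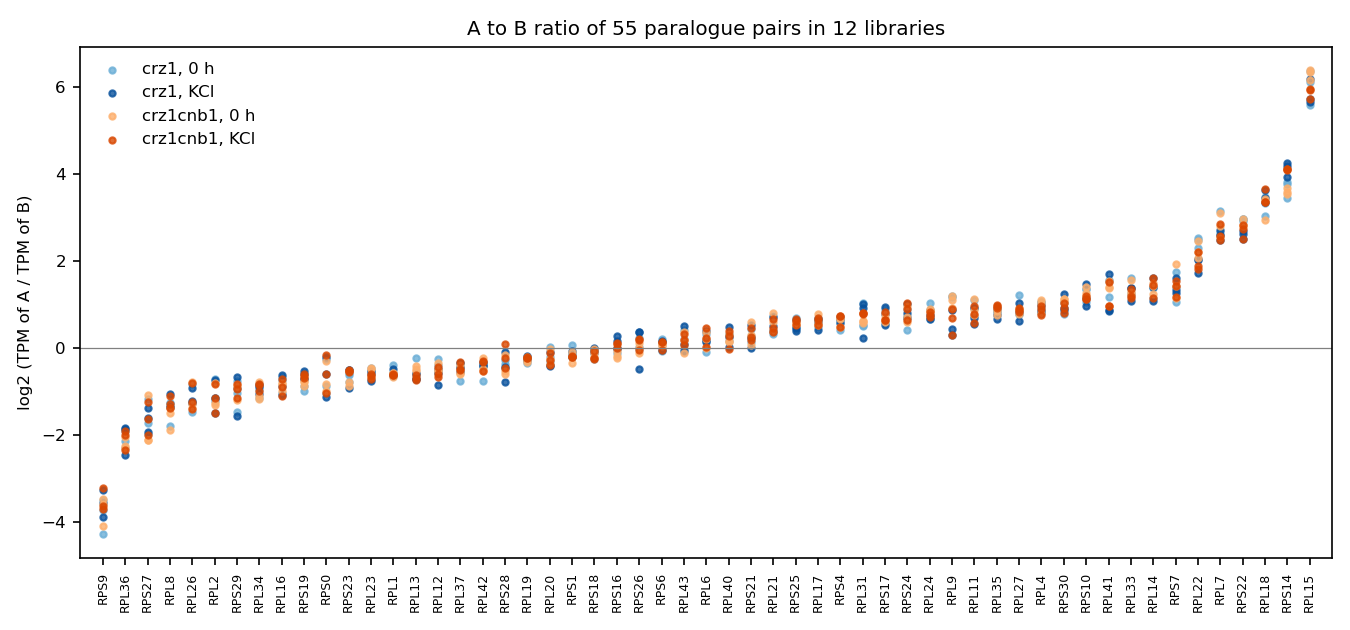
Log2 A/B ratio of TPM in 55 of the paralogue pairs, with a point for each of the 12 libraries coloured by group. The mean ratios run from -3.65 for RPS9 to 6.003 for RPL15, and all 12 points stay on one side of 0 in 46 of the pairs drawn.

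Whether reads can be told apart sets how firm these ratios are. In 49 of the 57 pairs at least 50% of the 50-base stretches of both copies were unique in the genome. Among the 8 others were RPL35 (18.6% in the less unique copy), RPL1 (19.0%), RPS6 (27.3%), RPL4 (27.3%), RPL41 (31.03%), RPL7 (37.7%) and RPL11 (39.1%). How reads with several matches were counted is not given in the sources used here, so the A and B values of these 8 pairs are uncertain.

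The A/B ratio differed little between KCl and 0 h in most pairs. The median absolute change over the 57 pairs, averaged over the 2 strains, was 0.080 on the log2 scale. The ratio varied more with the replicate number: the median range between the 3 numbers' means was 0.242, and in 47 of 57 pairs it was larger than the change in KCl, although a range of 3 means and a difference of 2 are not like for like. RPS0 had the widest range, 0.81, with a log2 ratio that averaged -0.72, -0.23 and -1.04 in the libraries numbered 1, 2 and 3. RPS27, whose ratio averaged -1.71, -1.27 and -1.998, was another such pair, and RPL2 had a range of 0.61.

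A few pairs stood apart from this in both strains. For RPS14 the log2 A/B ratio was 3.76, 3.44 and 3.82 in the crz1 controls and 4.18, 3.93 and 4.26 in KCl. In crz1cnb1 it was 3.60, 3.54 and 3.68 at 0 h and 4.08, 4.12 and 4.12 in KCl. All 6 KCl libraries lay above all 6 controls, and the ratio was higher by 0.42 to 0.57 in each of the 6 pairs. The means differed by 0.45 in crz1 and 0.50 in crz1cnb1. RPS14B lay at 348.0 to 425.3 TPM in the 6 controls and at 270.9 to 327.7 TPM in the 6 KCl libraries, without overlap. RPS14A lay at 4155 to 5063 TPM and 4319 to 5984 TPM, with overlap.

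For RPL9 the ratio was the other way. The log2 A/B ratio was 1.17, 1.20 and 0.90 in the crz1 controls and 0.45, 0.87 and 0.31 in KCl, and 1.19, 1.10 and 0.93 against 0.69, 0.90 and 0.31 in crz1cnb1. Within each strain every KCl library lay below every control, and the ratio was lower in 6 of 6 pairs, by 0.55 on average in crz1 and 0.44 in crz1cnb1. RPL9A was lower in 6 of 6 pairs, and RPL9B was higher in 5 of 6. As log2 shares of all ribosomal protein TPM over the 12 libraries, RPL9A had an SD of 0.159, RPL9B of 0.199 and their sum of 0.0756.

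RPL9A (YGL147C, chromosome VII, 227754 to 228329) and RPL9B (YNL067W, chromosome XIV, 499681 to 500256) have no intron and 93.8% identical coding sequences, with 36 differing bases. The 90-base coding window with the most differences, 11 of them, is shown with the differing bases in capitals, because it is where reads of the copies are told apart most easily.
RPL9A, chrVII:227757-227846, reverse strand: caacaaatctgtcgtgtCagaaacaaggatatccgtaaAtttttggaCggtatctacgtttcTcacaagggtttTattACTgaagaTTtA
RPL9B, chrXIV:500164-500253, forward strand: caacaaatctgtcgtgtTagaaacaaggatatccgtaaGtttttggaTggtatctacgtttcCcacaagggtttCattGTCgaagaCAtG

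For RPL22 the log2 A/B ratio was 2.53, 2.30 and 2.48 in the crz1 controls and 2.02, 1.72 and 2.05 in KCl. In crz1cnb1 it was 2.07, 2.45 and 2.21 at 0 h and 1.83, 2.20 and 1.89 in KCl. It was lower in 6 of 6 pairs, by 0.51 on average in crz1, where the groups did not overlap, and by 0.27 in crz1cnb1, where they did. RPL22A and RPL22B share 78.9% of their coding bases, and every 50-base stretch of both was unique.

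The other pairs named by the size of the shift were less even. The RPL8 ratio was higher by 0.18 in crz1 and 0.33 in crz1cnb1, in 5 of 6 pairs, and that of RPS9 by 0.26 and 0.20, in 4 of 6. The RPL15 ratio was lower by 0.16 and 0.42, in 5 of 6 pairs, and rested on RPL15B with as few as 375 counts. RPS22, a pair of high ratio, was lower by 0.34 and 0.19, in 6 of 6. Over all 57 pairs the ratio was higher in all 6 library pairs in 4 (RPS14, RPS16, RPS19 and RPS24) and lower in all 6 in 9 (RPL4, RPL7, RPL9, RPL11, RPL12, RPL20, RPL22, RPL23 and RPS22). These pairs were counted after the values were seen, and no test was made of the ratios.

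**Figure D5:**
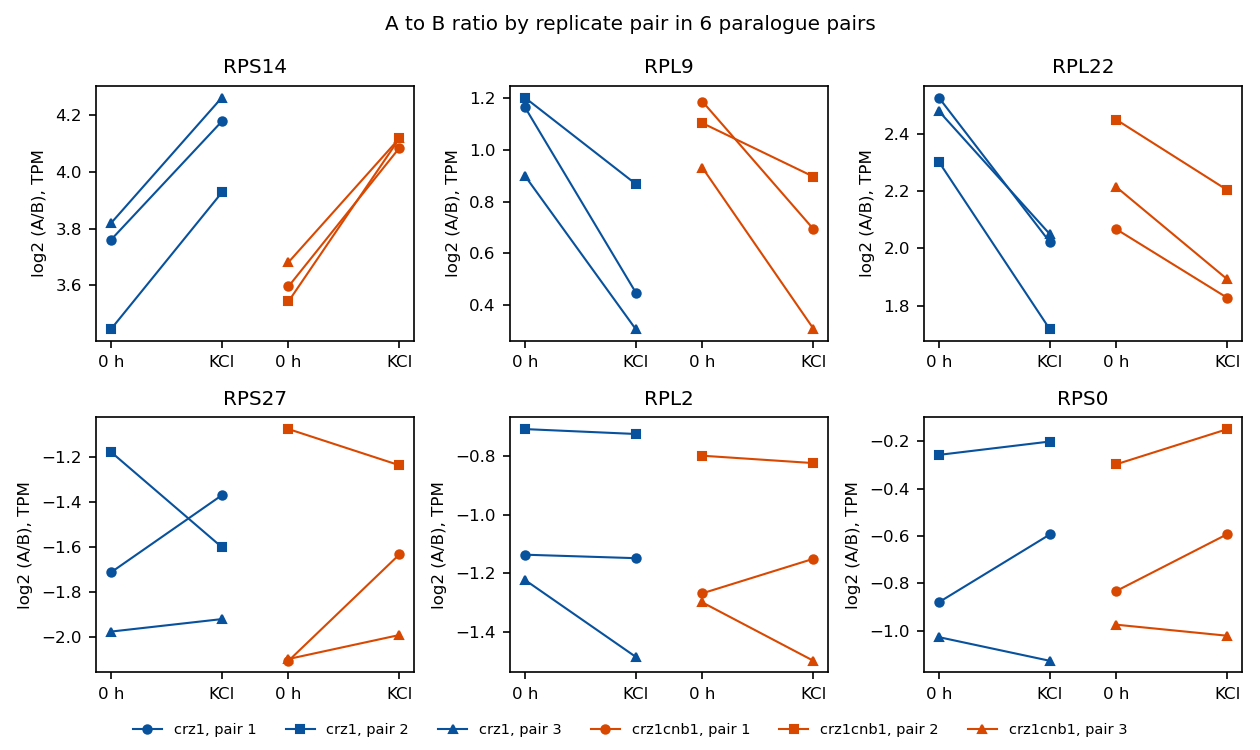
Log2 A/B ratio of TPM in each of the 12 libraries for 6 pairs, by group and replicate number. The ratio of RPS14 is higher and those of RPL9 and RPL22 are lower in KCl in each pair of libraries, while those of RPS27, RPL2 and RPS0 differ by replicate number, with ranges of 0.72, 0.61 and 0.81.

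The copies did not offset each other as a rule. The median SD over the 12 libraries of the log2 share of all ribosomal protein TPM was 0.185 for the minor copies, 0.173 for the major copies and 0.170 for the sums. The sum varied less than both copies in 28 of the 57 pairs, RPL9 being one. In a very unequal pair such as RPL15 the sum (SD 0.230) follows the major copy (SD 0.229). This count therefore cannot show whether copies offset each other, which was not tested.

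The responses of the strains were compared with the interaction term, coded crz1cnb1 minus crz1. Its median over the 132 genes was -0.10, with 109 of 132 below 0, against -0.01 over all features. In edgeR 0 genes were called, where 0% of all features were, and 0 of the 132 had an unadjusted p under 0.05, where 0.285% of all features did. DESeq2 also called 0, and 0% of all features. Without the crz1 control numbered 2 the median was 0.01, with 61 below 0. The lowest genes were RPL39, RPL43B and RPS10A and the highest RPS28A, RPS30B and RPL29, none with an interval that excluded 0.

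At 0 h the ribosomal protein genes were slightly higher in crz1cnb1 than in crz1, with a median log2 difference of 0.14 (126 of 132 higher) against 0.01 over all features. The pairs of controls with the same number gave medians of 0.00, 0.35 and 0.13. In edgeR 0 of the 132 genes were called, where 0.0159% of all features were, and 0 had an unadjusted p under 0.05, against 1.16% of all features. DESeq2 also called 0, where it called 0.101% of all features. All 3 crz1cnb1 libraries lay above all 3 crz1 libraries in 7 genes (5.30%), against 1.62% of all features. Without the crz1 control numbered 2 the median was 0.05, with 89 genes higher. With library totals it was 0.04, with 86 genes higher, while the median of all features was -0.11, and with limma on log2(TPM + 1) it was 0.01, with 72 higher, against -0.11. Measured from the median of all features it was 0.14, 0.14 and 0.13 under these 3 scalings. This comparison shares its crz1 controls with the KCl response of crz1, so the low control numbered 2 enters both.

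Both copies of RPL43 and of RPS10 led the strain difference at 0 h. RPS10A had 1692, 1457 and 1705 CPM in crz1 and 2446, 1667 and 2190 CPM in crz1cnb1, a log2 difference of 0.38 ± 0.189 (SE), and RPS10B differed by 0.34 ± 0.198. RPL43B had 1158, 758.0 and 1115 CPM in crz1 and 1573, 1023 and 1446 CPM in crz1cnb1, a difference of 0.41 ± 0.226, and RPL43A differed by 0.37 ± 0.235. The groups of RPS10A and RPL43B overlapped, and the 4 adjusted p-values in edgeR were all 0.9997. RPS9A at 0.31 ± 0.232 and RPL39 at 0.30 ± 0.260 followed. At the other end were RPS30B at -0.19 ± 0.301, RPL15B at -0.10 ± 0.275, RPL40A at -0.03, RPS28A at -0.02, RPS31 at -0.01 and RPL35B at 0.01.

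In KCl the strains differed by a median of 0.05 (116 of 132 higher in crz1cnb1) against 0.00 over all features. The pairs gave 0.13, 0.00 and 0.04. Without the crz1 KCl library numbered 1 the median was 0.00, with 65 genes higher and 67 lower. Whether the median was smaller in KCl than at 0 h (0.14) depended on the libraries numbered 2. Without those 4 it was 0.09 in KCl and 0.07 at 0 h. Without the crz1 control numbered 2 it was 0.05 at both. With library totals the median in KCl was 0.01, with 86 higher, against -0.04 over all features. In edgeR 0 of the 132 were called, where 0.0476% of all features were, and 0 had an unadjusted p under 0.05, against 1.11% of all. DESeq2 also called 0, where it called 0.116% of all features. Groups did not overlap, with crz1cnb1 higher, in 4 genes (3.03%), against 1.24% of all features. The largest differences were those of RPL29, at 0.29 ± 0.277 (SE), and RPS28A, at 0.27 ± 0.228. RPL38 at 0.18, RPL31A at 0.16, RPS15 at 0.16 and RPS25A at 0.12 followed, and RPS20 at -0.12 and RPL39 at -0.07 were lowest. RPL35B at -0.06, RPL14B at -0.04 and RPS23B at -0.01 completed the low end.

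Other genes of the pathway were described from lists, without a test of the list. Over all features the medians were 0.01 in crz1 and 0.02 in crz1cnb1. The stalk proteins RPP0, RPP1A, RPP1B, RPP2A and RPP2B, which carry elongation factors to the ribosome, and ASC1, a small-subunit scaffold protein, were lower in KCl in 6 of 6 genes in both strains, with medians of -0.21 and -0.32, and 0 were called. RPP1B at -0.31 ± 0.292 and ASC1 at -0.26 ± 0.275 (SE) were the lowest of them in crz1, and RPP2A at -0.43 ± 0.308 and ASC1 at -0.43 ± 0.276 in crz1cnb1. Of 25 translation factors 21 were lower in each strain, with medians of -0.19 and -0.26, and 0 were called. TEF4, for a subunit of elongation factor eEF1B, was at -0.64 ± 0.355 and -0.69 ± 0.355. TIF4631, for the initiation factor eIF4G, was at -0.54 ± 0.236 in crz1, where it was called with the block (adjusted p = 0.0349 in edgeR), and HYP2, for eIF5A, at -0.47 ± 0.264 in crz1cnb1.

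Of 17 tested chaperones and nascent chain factors, out of 18 listed, 14 and 15 were lower, with medians of -0.19 and -0.17, and 0 were called. The furthest were NAP1 at -0.43 ± 0.382 and SSB1, a ribosome-bound Hsp70, at -0.39 ± 0.290 (SE) in crz1, and SSB1 at -0.43 ± 0.290 and SSB2 at -0.31 ± 0.285 in crz1cnb1. The regulators of ribosomal protein transcription were more mixed, with 9 and 8 of 12 lower, medians of -0.12 and -0.09, and 0 called. CRF1, a corepressor of these genes, was at 0.48 ± 0.221 in crz1 and 0.70 ± 0.222 in crz1cnb1, on 40 to 141 counts, and its value in crz1cnb1 was called with the block (adjusted p = 0.0291 in edgeR). CBF1 was at -0.38 ± 0.322 in crz1 and RAP1 at -0.34 ± 0.165 in crz1cnb1. Of 16 genes of TORC1, PKA and Sch9 signalling 10 and 7 were lower, with medians of -0.07 and 0.01, and 0 were called. TAP42 was at 0.33 ± 0.206 in crz1 and SIT4 at -0.39 ± 0.239 in crz1cnb1.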

How the data were processed

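Poly(A) RNA of 12 samples was sequenced. Per the file headers, the authors deposited raw counts per gene and a second table of TPM (transcripts per 1000000) per gene, each library in its own column. featureCounts, DESeq2 and build R64 are named in the submitters' processing notes. Not given in the sources used here are the strand setting, the aligner, the annotation release and how reads that match several places were counted. The 132 members and all lists were chosen with earlier results of these data known.

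Counts were tested with edgeR 4.0.16 in R 4.3.3: TMM factors of 0.791 to 1.17, filterByExpr by group (6309 features kept), 1 coefficient per group over all 12 libraries, robust glmQLFit and glmQLFTest, and Benjamini-Hochberg adjustment over all 6309 at 0.05. Residual degrees of freedom were 8 before moderation, with a common biological coefficient of variation of 0.223. Errors of fold changes are standard errors, intervals are 95% and not adjusted, log2 CPM used a prior count of 2, and strain differences are crz1cnb1 minus crz1. TPM were used for levels and for A/B ratios. Counting error is small at these depths, since the lowest count of a member was 375. Code was tested on simulated counts.

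Deviations from group means correlated at 0.309 to 0.827 in the 18 library pairs with the same replicate number and at -0.732 to 0.317 in the 36 others, so the numbers pair the samples. The labels give no day or batch, and the pairing rests on these correlations. The main fit has no block. Alternatives were DESeq2 1.42.0 and its size factors, library totals, TMM without the members, no filter, limma 3.58.1 on log2(TPM + 1) and log2(TPM + 0.1), the replicate block, each library left out and, added after seeing the data, the 4 libraries numbered 2 left out. Named in each KCl response and strain difference are the 3 highest and 3 lowest members of each subunit and every member called; for levels the 3 highest and lowest per subunit; and the pairs of most extreme ratio (4 each way) or change of ratio (3 each way). A few features that these rules name are not reported here.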

Additional observations from a re-analysis of the deposited data

How the results depend on the processing

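The replicate block changed 1 count of called ribosomal protein genes, from 0 to 4 in the KCl response of crz1cnb1, and no call of a named member outside that comparison. Of the genes named from the pathway lists it also called TIF4631 in crz1 (adjusted p = 0.0349 in edgeR) and CRF1 in crz1cnb1 (adjusted p = 0.0291). No other alternative called any member in any of the 5 comparisons. The median change in crz1cnb1 was -0.044 with library totals and -0.051 with limma on either TPM scale. By TPM sums the log2 ratio of large to small subunit was higher in KCl by 0.0455 in crz1 and 0.0230 in crz1cnb1, and over the mostly unique pairs the median A/B ratio in crz1 differed by 0.0098. Leaving out 1 library at a time, the change of the ribosomal protein share ran from -1.29 to 0.366 percentage points in crz1 and from -1.90 to -0.538 in crz1cnb1, and that of the median A/B ratio in crz1 from -0.0350 to 0.0101.

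Of 987 values of named genes under alternatives, 930 kept direction and side of the threshold, 54 had the other sign and 3 passed the threshold, and 29 of the 47 gene results never changed sign. The changes of sign were not confined to values close to 0. At 0 h RPS30B was at -0.19 in the main fit and reached 0.17 with a library left out. In the KCl response of crz1cnb1 RPL41B was at 0.14 in the main fit and reached -0.16 in this way. In the KCl response RPS14A was at -0.021 in crz1 without the libraries numbered 2, and in crz1cnb1 RPS14A was at 0.11 and RPS22B at 0.15, 0.14 and 0.14 with library totals and both TPM scales. At 0 h RPL35B was at -0.11, -0.094 and -0.094 with these and at -0.018 without the libraries numbered 2, RPL15B at 0.14 without them, and RPS28A at 0.013 and RPS31 at 0.012 with the block. In KCl the strain difference without the libraries numbered 2 was 0.12 for RPL39, 0.071 for RPL14B, 0.10 for RPS20 and 0.20 for RPS23B.

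With single libraries left out, the KCl response ran from -0.19 to 0.18 for RPS14A, -0.066 to 0.23 for RPS9A and -0.036 to 0.27 for RPS22B in crz1. In crz1cnb1 it ran from -0.085 to 0.30 for RPL15B, -0.16 to 0.41 for RPL41B, -0.23 to 0.087 for RPS14A and -0.15 to 0.11 for RPS22B. The strain difference at 0 h ran from -0.35 to 0.11 for RPL15B, -0.20 to 0.14 for RPL40A, -0.13 to 0.25 for RPL35B, -0.40 to 0.17 for RPS30B, -0.26 to 0.25 for RPS28A and -0.13 to 0.19 for RPS31. In KCl it ran from -0.35 to 0.080 for RPL39, -0.17 to 0.025 for RPL35B, -0.14 to 0.11 for RPL14B, -0.26 to 0.12 for RPS20 and -0.092 to 0.14 for RPS23B. The causes of these changes were not tested. Depth was at least 375 counts for a member in a library, and standard errors of log2 changes were 0.168 to 0.344 for the genes named in the KCl responses. What limits the calls was not tested.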
